A study of Mus musculus with 12 samples.

Results

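Microglia, the resident macrophages of the brain, were followed here through 32 genes that mark them, compared between the cerebellum and the hippocampus and between En2WT mice and En2KO mice, which lack the homeobox of Engrailed-2. The members were taken from background knowledge of the cell type, and a probe was assigned to a member when the gene name in the newer of the deposited annotations was that symbol or an older one. All 32 members of 21147 named genes had a probe, through 48 probes, and Spi1 was found under its older symbol Sfpi1. RNA from the entire cerebellum or entire hippocampus was hybridised with a single dye, Cy3, to Agilent mouse expression arrays, on which the brightness of a spot measures the labelled RNA bound to a short probe. There were 4 groups of 3 arrays, 12 in all, namely cerebellum En2WT, cerebellum En2KO, hippocampus En2WT and hippocampus En2KO. En2WT carried both intact En2 alleles and En2KO, called En2-/- in the study, was homozygous for the allele without the homeobox. Per the study's methods the mice were littermates 3 to 5 months old and of both sexes, bred from heterozygous parents. Both genotypes came from a mutant line of mixed 129Sv, C57BL/6 and outbred origin that had been bred to C57BL/6 for 5 or more generations, so that alleles of the founder strains could remain. The methods name 3 mice of each genotype as the source of both tissues, but the labels did not say which arrays shared a mouse. The tests therefore treat the arrays as independent, and the p-values measure the spread between these arrays.

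Microglia enter the brain early in development from yolk sac precursors and renew themselves there, and their survival depends on the receptor Csf1r. They survey the tissue through the purine receptor P2ry12 and the fractalkine receptor Cx3cr1, tag synapses and debris with complement C1q, and take up and digest material through the TREM2 and Fc receptor pathways and lysosomal proteases. The transcription factors PU.1 (Spi1), Irf8 and Sall1 maintain their identity. In bulk tissue a difference in these genes can come from fewer cells or from less RNA per cell, and the arrays cannot tell them apart.

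The scanner called 62.27% to 73.05% of the 43379 spots of genes on an array well above background and none saturated, and the 110 to 331 spots it marked as outliers were left out. Values are log2 of the scanner's background-corrected signal after quantile normalization over the 12 arrays, so that a difference of 1 is a doubling. The labelled tissues were matched by their markers, since all 9 cerebellum markers tested were lower in the hippocampus in both genotypes and 8 of 9 hippocampus markers were higher. The En2 probe lies outside the deleted part and gave 13.80 to 14.81 on all cerebellum arrays, so it did not check the genotype labels. Xist lay between 12.04 and 13.43 on all 12 arrays, and the Y-linked genes Ddx3y, Eif2s3y, Uty and Kdm5d were not well above background on any array, although the methods name both sexes. The replicate number was that of the slide, and each slide held 1 array of every group. The position on the slide was the same for all arrays of a group, so position and group cannot be told apart.

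Of the 32 members, 30 were well above background on all 12 arrays. Spi1, the gene of PU.1, was well above background on 1 array only and lay between 2.75 and 4.26, near the floor, so it was not tested. Ctss, a lysosomal protease, had outlier flags on 2 cerebellum En2KO arrays and was tested within the hippocampus only. This left 30 members tested in the cerebellum and between regions, and 31 in the hippocampus.

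Taken as a group, the microglia genes were highest in the En2WT hippocampus and lowest in the En2KO cerebellum. The mean over the 30 members of each gene's distance from its own average over the 12 arrays was 0.90, 0.68 and 0.67 on the 3 En2WT hippocampus arrays and 0.27, 0.14 and 0.23 on the 3 En2KO hippocampus arrays, on the log2 scale. It was -0.20, -0.25 and -0.49 on the En2WT cerebellum arrays and -0.38, -1.05 and -0.52 on the En2KO cerebellum arrays. The 2 hippocampus groups did not overlap, every hippocampus array lay above every cerebellum array, and the cerebellum groups overlapped. The genotype difference of this mean, En2KO minus En2WT, was -0.63, -0.55 and -0.44 on slides 1, 2 and 3 in the hippocampus, and -0.19, -0.80 and -0.03 in the cerebellum. The cerebellum En2KO array on slide 2 held the lowest value of its group for 23 of the 30 members. The region difference of this mean, hippocampus minus cerebellum, was 1.06 in En2WT and 0.86 in En2KO. With the authors' values, which appear normalized in each tissue separately, it was 0.63 and 0.42. These means describe the arrays and carry no test.

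**Figure D1:**
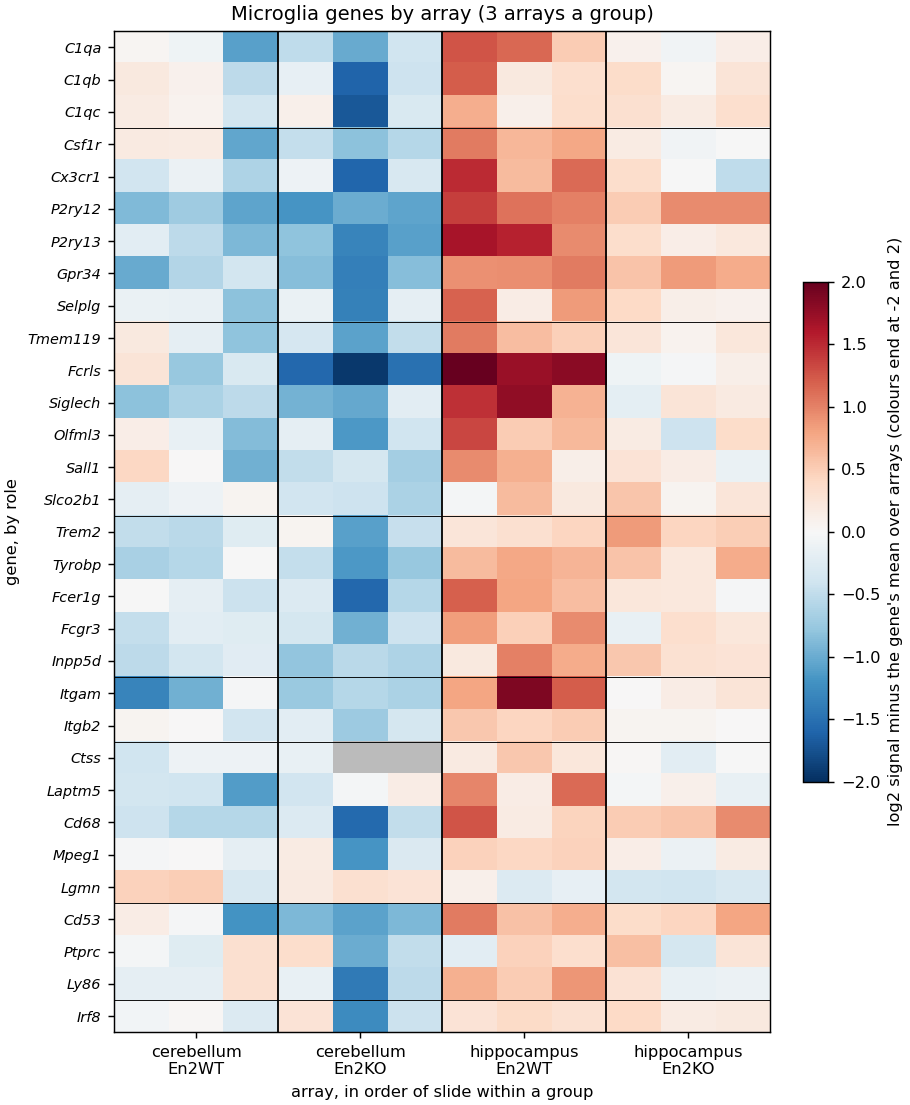
Each row is a microglia gene, ordered by role as in the text with lines between roles, and each column is an array, with 3 arrays per group. Colours give the log2 signal minus the gene's mean over the arrays, from blue (lower) to red (higher), and grey marks 2 values of Ctss left out as outlier spots. The hippocampus En2WT columns are the reddest, and the second cerebellum En2KO column is the bluest for many genes. Spi1 is not drawn.

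**Figure D2:**
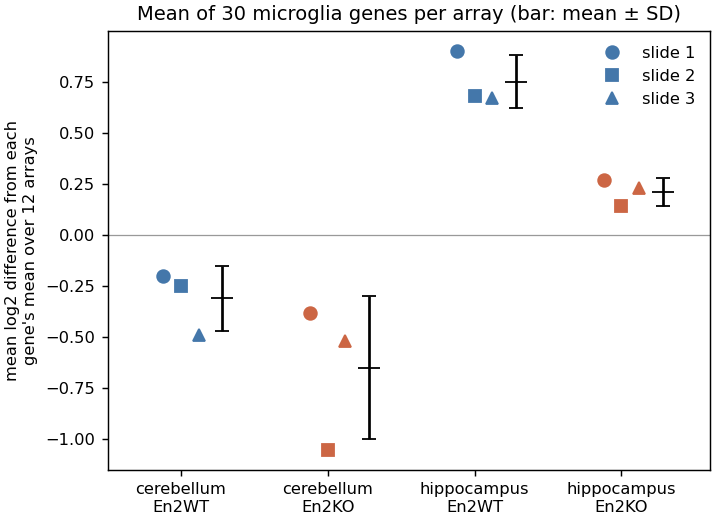
Points give, for each array, the mean log2 distance of 30 microglia genes from their own averages over the 12 arrays, and marker shapes give the slide. Bars show the mean and SD of each group (n = 3). The hippocampus En2WT arrays lie between 0.67 and 0.90 and the hippocampus En2KO arrays between 0.14 and 0.27.

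The first comparison asked how the microglia genes differed between the regions. In En2WT mice 21 of 30 members were higher in the hippocampus (limma with Benjamini-Hochberg adjustment over 15818 genes, adjusted p under 0.05), where 14.7% of all genes tested were called higher. In En2KO mice 13 of 30 were higher, where the share of all genes was 14.3%, and 12 members were called in both genotypes. None was called lower. The median log2 difference, hippocampus minus cerebellum, was 1.07 in En2WT and 0.77 in En2KO over the members, beside -0.07 and 0.03 over all genes. The 3 hippocampus arrays lay above all 3 cerebellum arrays for 25 members in En2WT, where 19.8% of all genes did, and for 23 in En2KO, where 23.8% did. Both comparisons lost calls with single arrays left out. Without the hippocampus En2WT array on slide 1, 12 members were called in En2WT, and without single arrays between 10 and 18 were called in En2KO.

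The receptors for purine and chemokine signals held several of the largest region differences. P2ry12, the ADP receptor through which microglia send processes to injury, was at 7.99, 8.17 and 7.83 on the En2WT cerebellum arrays and at 10.26, 9.97 and 9.88 on the En2WT hippocampus arrays. In En2KO it was at 7.70, 7.89 and 7.83 in the cerebellum and at 9.38, 9.82 and 9.83 in the hippocampus. The regions were far apart in both genotypes, with log2 differences of 2.04 ± 0.18 (SE, adjusted p = 4.7e-06) and 1.87 ± 0.18 (adjusted p = 1.3e-05), or 4.12-fold and 3.66-fold. P2ry13, a related ADP receptor, was at 7.72, 7.41 and 7.04 in the En2WT cerebellum and at 9.58, 9.48 and 8.88 in the En2WT hippocampus, a difference of 1.92 ± 0.24. Gpr34, a receptor for lysophosphatidylserine, was at 7.38, 7.80 and 8.01 in the En2WT cerebellum and at 9.30, 9.31 and 9.43 in the En2WT hippocampus, a difference of 1.62 ± 0.21. Its En2KO arrays were at 7.54, 7.01 and 7.54 in the cerebellum and at 8.95, 9.23 and 9.12 in the hippocampus, a difference of 1.73 ± 0.21. The regions did not overlap for these receptors in either genotype. All 6 genes of this group, P2ry12, P2ry13, Gpr34, Csf1r, Cx3cr1 and Selplg, were called in En2WT and 3 of 6 in En2KO. In En2KO, Csf1r, the receptor for the survival factors of microglia, had a difference of 0.65 (adjusted p = 0.112), Cx3cr1 of 0.62 (adjusted p = 0.248) and Selplg, the P-selectin ligand, of 0.75 (adjusted p = 0.14). The En2WT call of Selplg was lost without the cerebellum array on slide 2 or 3 or the hippocampus array on slide 1 or 3. It was also lost without the filter on dim probes. The En2WT call of Csf1r was lost without the hippocampus array on slide 1.

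Among the markers of resident microglia, Fcrls, an Fc receptor-like surface protein, and Siglech, a sialic acid binding lectin, differed most in En2WT. Fcrls was higher in the hippocampus by 2.19 ± 0.25 in En2WT and by 1.67 ± 0.25 in En2KO. Siglech had a difference of 1.97 ± 0.29 in En2WT (adjusted p = 0.000265) and of 0.81 ± 0.29 in En2KO (adjusted p = 0.0581). Tmem119, a surface marker, was higher by 0.97 and 0.82, and both differences passed. Its En2KO call was lost without any 1 of 5 of the 6 arrays, with the authors' values and without the filter on dim probes, and its En2WT call without the cerebellum array on slide 3 or the hippocampus array on slide 1. Olfml3, a secreted protein, was higher by 1.12 in En2WT (adjusted p = 0.0254) and had 0.61 in En2KO (adjusted p = 0.214), and with the mean of its probes the En2WT difference was 0.01 and was not called. The En2WT call of Olfml3 was also lost with the authors' values and without the cerebellum array on slide 3 or the hippocampus array on slide 1. Sall1, the transcription factor of resident microglia, did not pass in either genotype, with 0.77 and 0.61. It was called in En2WT with the slide as a block and without the cerebellum array on slide 1 or the hippocampus array on slide 3. Slco2b1, an organic anion transporter, passed in En2KO alone, with 0.76, beside 0.34 in En2WT. Its call was lost without the En2KO cerebellum array on slide 3 or the En2KO hippocampus array on slide 1.

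All 5 genes of TREM2, Fc receptor and ITAM signalling were higher in the hippocampus in both genotypes. Trem2, a lipid receptor, had differences of 0.76 and 1.09, Tyrobp, its signalling adaptor, of 1.10 and 1.30, and Inpp5d, the phosphatase SHIP1, of 1.01 and 1.03, in En2WT and En2KO. Fcer1g, the common Fc receptor chain, had 1.07 and 0.94, and Fcgr3, a low-affinity IgG receptor, had 1.07 and 0.71. The En2WT call of Trem2 and the En2KO call of Fcer1g were each lost without any 1 of 5 of the 6 arrays and without the filter on dim probes. The En2KO call of Fcgr3 was lost without any 1 of 3 arrays, the En2WT call of Fcer1g without the hippocampus array on slide 1, and with the authors' values Trem2, Cd68 and Cd53 in En2WT and Fcer1g and Fcgr3 in En2KO were not called. Cd68, a lysosomal membrane glycoprotein, and Cd53, a leukocyte tetraspanin, also passed in both genotypes, with 1.14 and 1.45 for Cd68 and 1.14 and 1.48 for Cd53. Without the hippocampus array on slide 1 the En2WT calls of Cd68 and Cd53 were lost. That of Cd68 was also lost without the cerebellum array on slide 2 or 3.

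The complement C1q chains, whose genes lie side by side on chromosome 4, were less uniform. C1qa was higher in the En2WT hippocampus by 1.35 ± 0.30 (adjusted p = 0.00477), whereas C1qb had 0.66 (adjusted p = 0.203) and C1qc 0.44 (adjusted p = 0.395). In En2KO the 3 chains had 0.69, 0.94 and 0.91, and none passed, with adjusted p between 0.0817 and 0.117.

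The integrin Itgam, of complement receptor 3, had a region difference of 2.06 ± 0.32 in En2WT (adjusted p = 0.000428) and of 0.79 ± 0.32 in En2KO (adjusted p = 0.0938). On the mean of both genotypes the 4 smallest region differences were those of Lgmn, Ptprc, Mpeg1 and Itgb2. Lgmn, the lysosomal protease legumain, was the one member below 0 in both genotypes. It was at 14.47, 14.50 and 13.68 on the En2WT cerebellum arrays and at 14.11, 13.73 and 13.84 on the En2WT hippocampus arrays, and at 14.18, 14.32 and 14.28 and at 13.64, 13.60 and 13.68 in En2KO. The regions overlapped in En2WT and did not in En2KO, with differences of -0.33 ± 0.22 (adjusted p = 0.277) and -0.62 ± 0.22 (adjusted p = 0.0534). Lgmn was called lower in the En2KO hippocampus with normexp background correction, with the authors' values and with the stricter filter on dim probes, and in En2WT without the cerebellum array on slide 3. Ptprc, the leukocyte phosphatase CD45, was at 8.0, 7.79 and 8.35 in the En2WT cerebellum and at 7.83, 8.5 and 8.37 in the En2WT hippocampus, which overlapped. In En2KO it was at 8.39, 7.04 and 7.54 and at 8.63, 7.68 and 8.29, which overlapped as well. Mpeg1, a pore-forming protein of phagosomes, was at 10.56, 10.59 and 10.40 in the En2WT cerebellum and at 11.04, 11 and 11.05 in the En2WT hippocampus. Its En2KO arrays were at 10.75, 9.40 and 10.29 in the cerebellum and at 10.72, 10.46 and 10.75 in the hippocampus, and its differences of 0.51 and 0.49 did not pass. Itgb2, the beta chain of the leukocyte integrins, was at 7.27, 7.23 and 6.84 in the En2WT cerebellum and at 7.76, 7.65 and 7.73 in the En2WT hippocampus. In En2KO it was at 7.01, 6.50 and 6.87 and at 7.27, 7.28 and 7.22. The regions of Itgb2 did not overlap, and its difference passed in En2WT (0.60, adjusted p = 0.0225) and not in En2KO (0.46, adjusted p = 0.0765). With the authors' values, which appear normalized in each tissue separately, the En2WT difference of Itgb2 was 0.05 and was not called. That call was also lost with 75th percentile scaling and without the cerebellum array on slide 3 or the hippocampus array on slide 1 or 3.

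**Figure D3:**
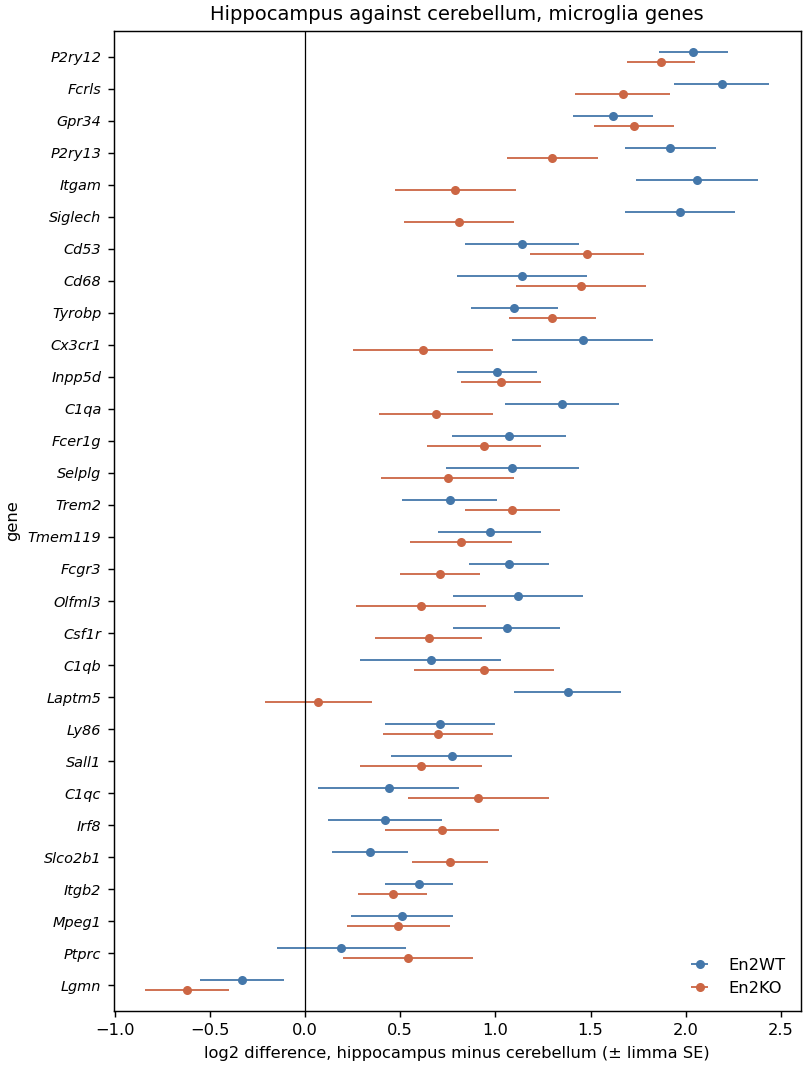
Points give the log2 difference hippocampus minus cerebellum of 30 microglia genes in En2WT and En2KO, with the limma standard error as bars. P2ry12 and Fcrls are at the top, with 2.04 and 2.19 in En2WT, and Lgmn at the bottom is the one gene left of 0.

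The second comparison asked whether the microglia genes differed between genotypes in the hippocampus. By the rank product, the kind of test the study used, run here on the 9 ratios of an En2KO to an En2WT array with P from 100 permutations, 6 of 31 members were lower in En2KO at P under 0.005, where 2.34% of all 14972 genes were called lower and 1.83% higher. They were C1qa, Cx3cr1, P2ry13, Itgam, Fcrls and Siglech, and no member was called higher. By limma 1 member, Fcrls, was lower, where 1.34% of all genes were called in either direction, and 15 of 31 members and 2919 of 14972 genes had an unadjusted p under 0.05. The log2 difference was below 0 for 28 of 31 members with a median of -0.46, beside 6620 of 14972 genes with a median of 0.05. The 3 En2KO arrays lay below all 3 En2WT arrays for 19 members, where 11.3% of all genes did.

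The rank product calls other than Fcrls depended on the setting. With the percentage of false prediction, the test's estimate of false calls, held under 0.05 in place of P, Fcrls alone was called at 0.0088, and the other 5 had values of 0.0864 to 0.214. Without the hippocampus En2WT array on slide 1 the rank product called 3 members and lost C1qa, Cx3cr1 and P2ry13. Without the En2KO array on slide 3 it called 4 and lost C1qa and Cx3cr1. Without the En2WT array on slide 2 it called 4, as it lost C1qa, Itgam and Siglech and added Laptm5. C1qa was lost without any 1 of 5 of the 6 arrays, with 75th percentile scaling, with quantiles within the tissue, without the filter on dim probes and with the mean of a gene's probes, which lost Cx3cr1 as well. Without the En2WT array on slide 3 limma called C1qa, P2ry13 and Siglech beside Fcrls.

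Because the calls rest on single probes, the opening bases of the brightest probe of each of the 6 called genes are shown. Those of the second Fcrls probe are added, and the dimmer second probes of Cx3cr1 and Itgam are not shown. Each sequence is the first 30 of 60 bases, 5′ to 3′ in the sense of the transcript, in lower case. The probe of C1qa lies at chr4:136452409-136452468, that of Cx3cr1 at chr9:119959018-119959077, that of P2ry13 at chr3:59012054-59012113 and that of Itgam at chr7:135261475-135261534. The Fcrls probes lie at chr3:87056422-87056481 and, for the dimmer one, at chr3:87055125-87055184, and that of Siglech at chr7:63033169-63033228, all in the mm9 build as the files give them, on the minus strand except for Itgam and Siglech. An annotation of mm9 was not used here, so exon and UTR are not named.
C1qa: ccggccagctttctcagccattcggcagaa
Cx3cr1: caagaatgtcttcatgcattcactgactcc
P2ry13: gaatcacttgctaatcttgacctttacaaa
Itgam: gaatcgattaacccgtcaaagtacaaaaac
Fcrls: gaagctctgcctgtgctcattcaggtagcc
Fcrls, second probe: gaggactcgaaactatattaatctgctctg
Siglech: gcccactttaagtgtttggttgcatttaaa

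Fcrls had the largest genotype difference of the members in both regions. In the hippocampus it was at 9.49, 8.98 and 9.06 on the En2WT arrays and at 7.17, 7.22 and 7.36 on the En2KO arrays. The groups lay more than 1 log2 unit apart, and the difference was -1.92 ± 0.19 (limma adjusted p = 0.00645), or 3.80-fold. In the cerebellum it was at 7.51, 6.49 and 6.95 in En2WT and at 5.68, 5.32 and 5.76 in En2KO, again without overlap. The second probe of Fcrls, well above background on all 12 arrays, had smaller differences in the same direction, -1.07 in the hippocampus and -0.82 in the cerebellum.

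Siglech was at 8.51, 8.82 and 7.74 on the En2WT hippocampus arrays and at 6.85, 7.30 and 7.23 on the En2KO arrays, a difference of -1.23 ± 0.29 (rank product permutation P = 0.000756, limma adjusted p = 0.0984). In the cerebellum its En2WT arrays were at 6.22, 6.41 and 6.52 and its En2KO arrays at 6.10, 6.03 and 6.83. The genotypes were apart in the hippocampus and overlapped in the cerebellum. Itgam, the alpha chain of complement receptor 3 (CD11b), was at 7.70, 8.78 and 8.13 in the En2WT hippocampus and at 6.92, 7.06 and 7.18 in the En2KO hippocampus, a difference of -1.15 ± 0.27 (rank product permutation P = 0.00136). In the cerebellum it was at 5.60, 5.96 and 6.89 in En2WT and at 6.17, 6.35 and 6.28 in En2KO. Its genotypes, too, were apart in the hippocampus and overlapped in the cerebellum, and its second probe, above background on 11 of 12 arrays, had a hippocampus difference of -1.48.

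P2ry13 was at 9.58, 9.48 and 8.88 on the En2WT hippocampus arrays and at 8.29, 8.07 and 8.14 on the En2KO arrays, a difference of -1.15 ± 0.22 (rank product permutation P = 0.0011, limma adjusted p = 0.0571). Its En2KO cerebellum arrays were at 7.13, 6.62 and 6.84, the highest of which lay above the lowest En2WT array. Cx3cr1 was at 10.62, 9.76 and 10.26 in the En2WT hippocampus and at 9.48, 9.11 and 8.62 in the En2KO hippocampus, a difference of -1.14 ± 0.29 (rank product permutation P = 0.00118). In the cerebellum it was at 8.74, 9.01 and 8.5 in En2WT and at 9.02, 7.53 and 8.80 in En2KO, and the genotypes overlapped widely. Its dimmer second probe, above background on 8 arrays, had a smaller hippocampus difference of -0.47 with overlapping genotypes, and with the mean of its probes Cx3cr1 was not called. The remaining genes grouped with these receptors, Csf1r, P2ry12, Gpr34 and Selplg, had hippocampus differences of -0.80, -0.36, -0.25 and -0.53. None was called, although the arrays of Csf1r, P2ry12 and Gpr34 did not overlap. Csf1r was called by the rank product with normexp background correction and with the authors' values.

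C1qa was at 12.17, 12.06 and 11.42 on the En2WT hippocampus arrays and at 11, 10.84 and 11.04 on the En2KO arrays, a difference of -0.92 ± 0.23 (rank product permutation P = 0.00491). In the cerebellum it was at 10.95, 10.82 and 9.83 in En2WT and at 10.41, 9.91 and 10.51 in En2KO. The genotypes did not overlap in the hippocampus and did in the cerebellum. The other C1q chains did not follow it in the hippocampus, with -0.36 ± 0.28 for C1qb and -0.12 ± 0.20 for C1qc, and their arrays overlapped.

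Of the 5 genes of TREM2, Fc receptor and ITAM signalling, 4 had a difference below 0 in the hippocampus, with a median of -0.27, and none was called. Their mean distance from the gene's average was 0.62, 0.67 and 0.68 on the En2WT arrays and 0.41, 0.30 and 0.34 on the En2KO arrays, without overlap. Trem2, the one above 0, was at 12.06, 12.13 and 12.25 on the En2WT arrays and at 12.67, 12.25 and 12.31 on the En2KO arrays, and it was the only member whose En2KO arrays met or exceeded all En2WT arrays, with a difference of 0.27 ± 0.18 (limma adjusted p = 0.43) that was not called. Its second probe gave 0.25. Tyrobp and Inpp5d had -0.19 and -0.27, while Fcer1g and Fcgr3 had -0.73 and -0.62 and did not overlap between genotypes. Of the lysosomal and phagosomal genes, Laptm5, a lysosomal membrane protein, had -0.78, Mpeg1 -0.39, Ctss -0.38, Lgmn -0.25 and Cd68 0.05, and none was called. Irf8 had -0.07, Ptprc -0.03, Cd53 -0.25 and Ly86, a partner of a Toll-like receptor homologue, -0.68.

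**Figure D4:**
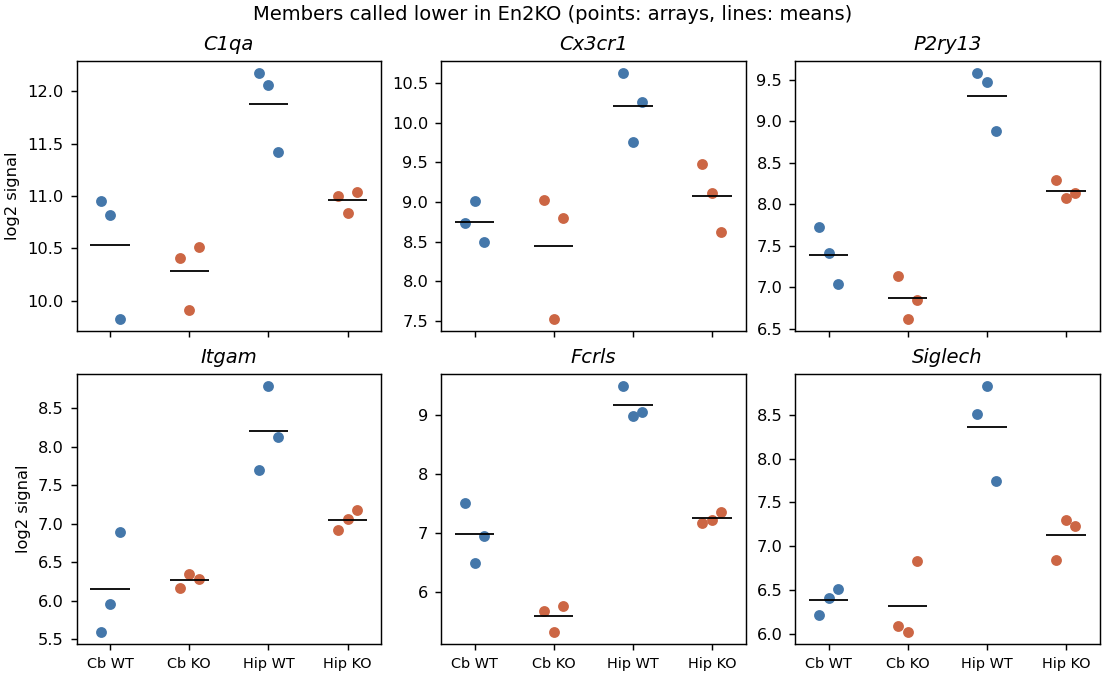
Points give the log2 signal of single arrays for the 6 microglia genes called lower in En2KO by the rank product, with lines at the group means (Cb, cerebellum, and Hip, hippocampus). Hippocampus En2WT and En2KO arrays do not overlap for any of the 6 genes, and in the cerebellum the genotypes are apart for Fcrls alone.

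The third comparison was between genotypes in the cerebellum. Fcrls was the one member called by the rank product, at a permutation P = 0.000282 and with a log2 difference of -1.40 ± 0.28, where 2.65% of all 15595 genes were called lower and 2.35% higher at P under 0.01. Its percentage of false prediction was 0.043. With normexp background correction, and also with the authors' values, its difference was -0.72, and it was still called. Without the En2WT array on slide 3 Cd53 was called lower as well, making 2 members. By limma no member was called (Fcrls adjusted p = 0.105), where 0.66% of all genes were called, and 1 of 30 members and 1451 of 15595 genes had an unadjusted p under 0.05. The difference was below 0 for 27 of 30 members with a median of -0.35, beside 8386 of 15595 genes and a median of -0.03. The En2KO arrays lay below all En2WT arrays for 3 members, Fcrls, Slco2b1 and Inpp5d, where 8.8% of all genes did. Without the En2KO array on slide 2 the genotype difference of the mean over the 30 members was -0.14, against -0.34 with it. Above 0 were Itgam with 0.12, Lgmn with 0.04 and Laptm5 with 0.54 ± 0.26, none of them called.

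Whether the genotype difference itself differed between regions was tested in the fit of all 12 arrays. No member passed (limma, 30 tested), and 0.145% of all genes passed. An unadjusted p under 0.05 was found for 3 of 30 members and for 1869 of 15818 genes, a similar share. The 3 were Laptm5, with a hippocampus minus cerebellum contrast of -1.32 (adjusted p = 0.308), Itgam with -1.27 (adjusted p = 0.335) and Siglech with -1.16 (adjusted p = 0.334). Fcrls had -0.53 (adjusted p = 0.547). The calls of Cx3cr1, P2ry13, Itgam, Siglech and C1qa in the hippocampus are therefore not shown to be particular to that region. Laptm5 was at 7.56, 7.52 and 6.80 in the En2WT cerebellum, 7.54, 7.88 and 8.07 in the En2KO cerebellum, 8.90, 8.08 and 9.05 in the En2WT hippocampus and 7.89, 8.03 and 7.78 in the En2KO hippocampus. Its second probe gave 0.59 in the cerebellum and -0.64 in the hippocampus. The region and genotype comparisons share their arrays, and the En2WT hippocampus arrays enter both the larger region difference in En2WT and the genotype difference in the hippocampus.

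**Figure D5:**
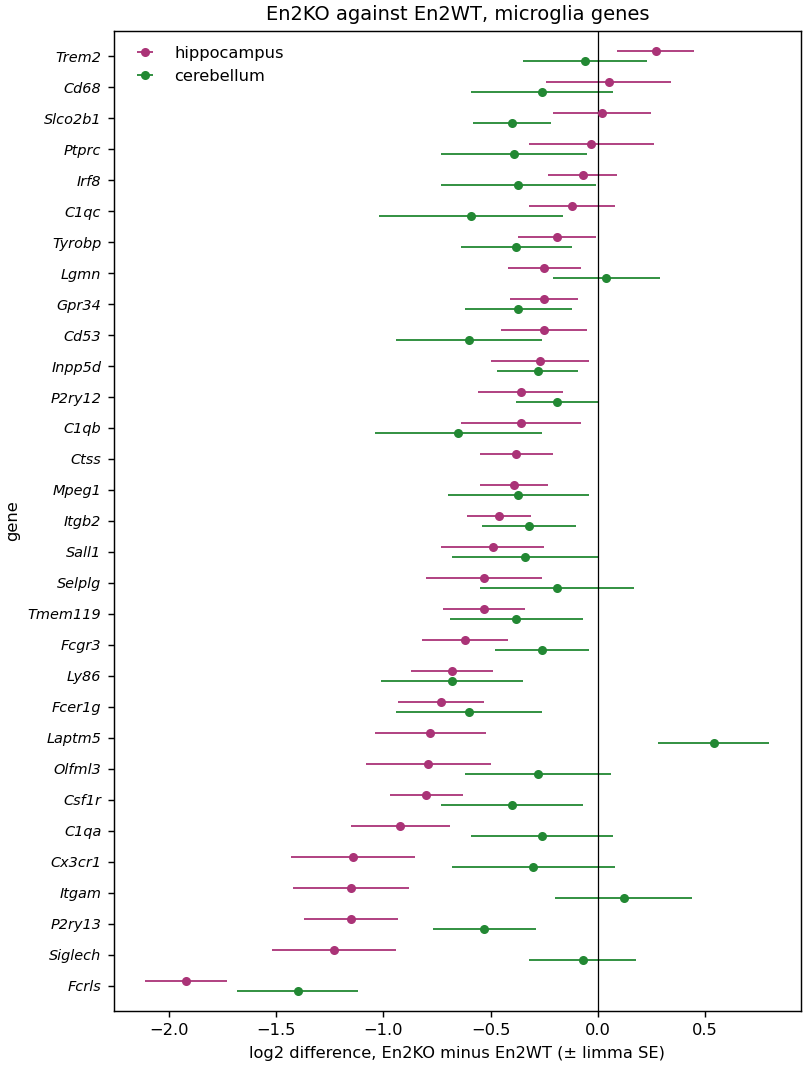
Points give the log2 difference En2KO minus En2WT of 31 microglia genes in the hippocampus and of 30 in the cerebellum, with the limma standard error as bars, ordered by the hippocampus. Most points lie left of 0 in both regions, Fcrls is at the bottom with -1.92 and -1.40, and Trem2 is at the top with 0.27 in the hippocampus.

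Of the members, 13 had more than 1 probe, and 8 of the 16 other probes were well above background on all 12 arrays. All 8 had the sign of the gene's first probe for the genotype difference in both regions and for the region difference in En2WT, and 7 of 8 for the region difference in En2KO, where Laptm5 had 0.07 and -0.02. The sizes could differ, as for Irf8, whose probes gave -0.07 and -0.88 in the hippocampus.

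Other genes of the microglial system, listed from background knowledge, were compared in the same fits. Of 44 other microglia genes 41 were tested between regions, and 18 in En2WT and 16 in En2KO were higher in the hippocampus, with medians of 0.70 and 0.61, while 3 and 1 were lower. On the mean of both genotypes the furthest from 0 were Blnk, an adaptor of B cell and macrophage signalling, with 2.03 and 2.96, and Aif1, coding for the calcium binding protein IBA1, with 1.25 and 1.84. The genotype differences of this list had medians of -0.05 in the hippocampus and -0.07 in the cerebellum, beside 0.05 and -0.03 over all genes. In the hippocampus 24 of 41 were below 0. The En2KO arrays lay below all En2WT arrays for 13 and above them for 4, beside 1689 and 2267 of 14972 genes. Aif1 and Blnk were among those above (0.59 and 0.65, limma adjusted p = 0.151 and 0.125), and neither was called. In the hippocampus Dock2, a regulator of leukocyte migration, was lower by limma and rank product (-1.07, adjusted p = 0.0413), Cd84, a leukocyte adhesion receptor, was lower by the rank product (-1.02), and Adgre1, the macrophage marker F4/80, was higher by the rank product (1.05). In the cerebellum Tlr2, a Toll-like receptor, was higher by the rank product (0.79), and Cyth4 and Susd3 were lower (-0.93 and -1.06). The genotypes of Cyth4 overlapped there (limma adjusted p = 0.662).

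Among 14 ligands and checkpoints of microglia tested, Cd59a, an inhibitor of the complement membrane attack complex that is not particular to microglia, was lower in both regions by both tests. It was at 12.06, 11.98 and 11.91 in the En2WT cerebellum and at 10.18, 10.14 and 10.08 in the En2KO cerebellum, and at 10.43, 11.05 and 10.84 and at 9.28, 8.04 and 8.62 in the hippocampus. The genotypes did not overlap, with differences of -1.85 (adjusted p = 0.00311) and -2.12 (adjusted p = 0.0293). Tgfb1, a cytokine that maintains the microglial state, was lower in the hippocampus by the rank product (-1.01, limma adjusted p = 0.131). The neuronal ligands Cx3cl1 and Il34 were near 0 between genotypes in the hippocampus (-0.01) or not called (0.38), and both were higher in the hippocampus than in the cerebellum, by 1.56 and 1.39 in En2WT. Of 24 activation genes 16 were tested in the hippocampus, 3 of them were below 0, the median was 0.32, and none was called there. In the cerebellum Lpl and Cd74 were higher by the rank product (1.14 and 0.90) and Clec7a and Gpnmb lower (-0.95 and -0.93). The genotypes of Cd74 overlapped (limma adjusted p = 0.511). Lpl, lipoprotein lipase, and Spp1, osteopontin, differed most between regions, with 4.34 and -4.24 in En2WT, and both are also made by other cells of the brain.

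Markers of other cell types moved with the genotype in some lists. For 11 endothelial and mural genes the mean distance from the gene's average was 0.04 to 0.46 on the En2WT hippocampus arrays and -0.22 to -0.08 on the En2KO hippocampus arrays. In the cerebellum it was 0.05 to 0.30 in En2WT and -0.25 to -0.07 in En2KO. Of the 12 genes tested in that list 10 were below 0 in the hippocampus and 11 in the cerebellum, and Cldn5 and Pecam1, endothelial junction genes, were lower in the hippocampus by the rank product (-1.07 and -0.97). Of 15 blood leukocyte genes 5 were tested in the hippocampus. Cd79b was lower (-1.13, rank product) and S100a9 higher (1.43, limma adjusted p = 0.0179). Cd79b was dim, at 3.95 to 5.73 in the hippocampus and well above background on 10 of 12 arrays. The mean of the 3 leukocyte genes above background on all arrays was -0.63 to -0.37 in En2WT and -0.08 to 0.15 in En2KO. Of 11 border macrophage genes 10 were tested in the hippocampus with a median of 0.30, and Lyve1 was higher by the rank product (1.06). In the cerebellum Maf was lower by the rank product (-0.95), with overlapping genotypes (limma adjusted p = 0.58). The 3 red blood cell genes tested had medians of 0.16 and -0.18, and none was called. The 7 choroid plexus genes had medians of -0.52 in the hippocampus, where their mean ran from -2.20 to 1.86 among the En2KO arrays, and 0.54 in the cerebellum. Their calls were by the rank product, with Ttr and Aqp1 lower in the hippocampus (-1.26 and -0.75) and Ttr, Otx2 and Aqp1 higher in the cerebellum (0.89, 0.90 and 0.87). In the hippocampus the genotypes of Ttr and Aqp1 overlapped (limma adjusted p = 0.54 and 0.771). The En2KO hippocampus arrays ran from 10.25 to 15.11 for Ttr and from 6.65 to 12.30 for Aqp1, beyond the En2WT arrays on both sides. For astrocytes, oligodendrocytes and neurons the hippocampus medians were -0.12, -0.23 and -0.16, those of the cerebellum 0.06, 0.04 and 0.13, and no gene was called. In the hippocampus 6 of 9 astrocyte genes, 9 of 10 oligodendrocyte genes and 8 of 8 neuronal genes were below 0. The mean over the astrocyte genes was -0.11 to 0.00 on the En2WT hippocampus arrays and -0.28 to -0.20 on the En2KO arrays, that over the neuronal genes 0.00 to 0.23 and -0.16 to -0.01, both without overlap, and that over the oligodendrocyte genes -0.33 to -0.13 and -0.74 to 0.01, which overlapped. Of the tissue markers, Cbln1 and Zic1 of the cerebellum were higher in the En2KO hippocampus by the rank product (1.10 and 1.24). Fibcd1 of the hippocampus was higher in the En2KO cerebellum by the rank product (0.78). Its genotypes overlapped there, at 3.86 to 6.23 (limma adjusted p = 0.778). Between regions in En2WT, hippocampus minus cerebellum differences among the furthest from 0 in these lists were -2.59 for Clec10a and 0.19 for Ms4a7 (border macrophages), -2.39 for S100a9 and 0.82 for Cd79b, -0.72 for Hba-a1 and -1.25 for Alas2 (red blood cells), and -0.62 for Flt1 and 0.89 for Acta2 (vessels), the pairs being chosen on the mean of both genotypes. They were -1.0 for each of the astrocyte genes Aqp4 and Aldoc, -1.06 for the oligodendrocyte gene Mobp, 1.54 and 1.14 for the choroid plexus genes Kl and Sostdc1, 2.01 and 1.13 for the neuronal genes Syt1 and Syn2, -12.18 and -6.47 for Gabra6 and En2, and 9.06 for Crym. The part of these cell types in the differences of the microglia genes was not tested.

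The promoters were searched for the core motif of PU.1, GAGGAAG, and for the composite motif of PU.1 and IRF factors, GGAANNGAA, on both strands of the 250 bases before and 50 after the start site (RefSeq, GRCm38.p6). The table held 32 promoters of 24 members. Csf1r, C1qa, Gpr34, Itgb2, Selplg, Spi1, Tmem119 and Tyrobp had no entry. The core motif was in 13 of these 32 promoters (40.6%), from 11 genes, and in 13.6% of all 32851 promoters. The composite motif was in 2 promoters (6.25%), those of Ctss and Cd68, and in 8.24% of all, and in Ctss it overlapped the core motif. Promoters of 1 gene can overlap, as those of Fcgr3 do, and a match is no evidence of binding. Of the 6 genes called in the hippocampus, Fcrls, P2ry13 and Itgam held the core motif before the start site, and Cx3cr1 and Siglech held neither motif. The stretches around it are shown with the motif in capitals, at chr3:87263627-87263703 on the minus strand for Fcrls, chr3:59210889-59210965 on the minus strand for P2ry13 and chr7:128062521-128062597 on the plus strand for Itgam, whose promoter held a further match after the start.
Fcrls: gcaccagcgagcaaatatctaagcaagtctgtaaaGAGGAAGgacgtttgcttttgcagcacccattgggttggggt
P2ry13: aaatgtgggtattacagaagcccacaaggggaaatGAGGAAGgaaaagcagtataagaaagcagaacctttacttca
Itgam: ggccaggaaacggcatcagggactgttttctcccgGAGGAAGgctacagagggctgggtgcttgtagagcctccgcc
The motif began 144 bases before the start in Fcrls, 48 in P2ry13 and 84 in Itgam.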

How the data were processed

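The authors scanned 12 one-colour Agilent arrays, and the deposited scanner files hold, per spot, the processed intensity after background correction by the scanner's software. The deposited table of the authors' log2 values was an alternative. It appears normalized in each tissue separately, since its highest value was 18.468 on all hippocampus arrays and 18.480 on all cerebellum arrays. The study's methods do not state this. Gene names were those of the cerebellum files, applied to all arrays. Outlier spots and control spots were left out, log2 intensities were quantile normalized over 12 arrays, spots of a probe were averaged, and the brightest probe stood for its gene. Tested were genes that all 3 arrays of at least 1 group measured well above background, with 2 or more values in each group. Genotypes were fitted within each tissue, and regions and the interaction over all arrays, with limma 3.58.1 in R 4.3.3 and Benjamini-Hochberg adjustment at 0.05. The rank product, with the study's limits of P under 0.01 in the cerebellum and 0.005 in the hippocampus, was written anew and run on these values, with 9 ratios and 100 permutations, in numpy 2.4.6 and pandas 2.3.3, and figures were drawn with matplotlib 3.10.9. Both tests were tested on simulated data. The number of arrays limits the precision, and the smallest p of an exact two-sided permutation test of 3 against 3 is 0.1.

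Named with every array were members called in a genotype comparison and the 4 largest and 4 smallest region differences. Of other lists, genes called between genotypes and the 2 largest region differences were named. Some of these are not reported here. The members and lists were chosen with earlier results of these data known. The file headers give the slide, which the replicate number follows. Deviations from the group means correlated between arrays of the same slide with a median of 0.06 (18 pairs, -0.19 to 0.42), and of different slides with -0.05 (36 pairs, -0.42 to 0.34). Alternatives were the scaling, background correction, dim probe filter, probe rule, slide as a block, and each array left out. Columns of the authors' own comparisons were not used.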

Additional observations from a re-analysis of the deposited data

How the results depend on the processing

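No called member difference changed sign under the alternatives run. With all 12 arrays in the fit limma called 1 cerebellum member and 2 hippocampus members, and with the mean of a gene's probes 2 in the hippocampus. Leaving out single arrays gave 0 cerebellum calls, 1 to 4 hippocampus calls, 12 to 21 between regions in En2WT and 10 to 18 in En2KO by limma, and by the rank product 1 to 2 in the cerebellum and 3 to 6 in the hippocampus. With the percentage of false prediction under 0.05 the rank product called 1 in the hippocampus. The region difference of the mean over the members was 0.63 in En2WT (1.06 as reported) and 0.42 in En2KO (0.86) with the authors' values. These values appear normalized by tissue. With normexp the region difference was 0.91 in En2WT. The cause of these changes was not tested.

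With the slide as a replicate block, limma called 0 members in the cerebellum, 1 in the hippocampus, 22 and 14 between regions in En2WT and En2KO, and 0 for the interaction, and the pairing moved no count of members by over 1.5 times. Over all genes the block lowered the hippocampus count from 201 to 69. Across all settings the counts over all genes ran from 41 to 160 in the cerebellum (103 as reported), 36 to 228 in the hippocampus and 4 to 26 for the interaction (23) by limma, and from 195 to 1009 (778) and 164 to 937 (624) by the rank product. The alternatives of the mean over the members that left out Fcrls, used all members with values or left out arrays were chosen after seeing the data.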
